A study of Mus musculus with 4 samples.

Results

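The transcripts of Leydig cells, the androgen-producing cells that lie between the seminiferous tubules, were followed in libraries of sorted mouse round spermatids. The 10 genes were chosen by name, as rows of the deposited table whose symbol matched Insl3, Cyp17a1, Cyp11a1, Star, Hsd3b1, Hsd3b6, Hsd17b3, Lhcgr, Nr5a1 or Fdx1, and all 10 were found among the 25965 listed genes. Round spermatids are haploid germ cells. They were collected from testis by fluorescence-activated sorting from mice of the ICR strain background, and their RNA was amplified by Smart-seq2. The controls were 2 libraries of genotype Wfdc15a+/- (heterozygous), and the other group was 2 libraries of genotype Wfdc15a-/- (called knockout here, after their titles). Both groups therefore carry at least 1 altered Wfdc15a allele. Wild-type libraries, which the design text also mentions, were not analysed here, and no label read here states the age of the mice, the nature of the allele or the sorting gate. The labels do not tie replicates to different animals, so the p-values reflect how far these libraries differ from each other, and that spread may be technical.

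In Leydig cells, luteinizing hormone acts on its receptor (Lhcgr) to raise cyclic AMP, and cholesterol is then carried into the mitochondrion by the protein that Star encodes. Cyp11a1 encodes the enzyme that cuts the cholesterol side chain with electrons passed on by ferredoxin (Fdx1), and enzymes encoded by Hsd3b1 or Hsd3b6, Cyp17a1 and Hsd17b3 complete the path to testosterone. Nr5a1 encodes steroidogenic factor 1, a nuclear receptor that drives many of these genes, and Insl3 encodes a peptide hormone that Leydig cells secrete and that acts in testis descent. Round spermatids do not make testosterone, so these transcripts are known as markers of another cell type of the testis.

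Library totals recovered from the steps of the deposited values were 5774112 and 33853604 reads for heterozygous libraries 1 and 2, and 21160061 and 11268909 reads for knockout libraries 1 and 2. A level is given in RPM, reads per 1000000 reads of the library total, and a single read was worth 0.173, 0.0295, 0.0473 and 0.0887 RPM in that order. The 12 round spermatid markers were present in every library, from 23.7 RPM at the lowest to 1387 RPM at the highest, and their summed level was 4168 and 6185 RPM in the heterozygous and 4135 and 3646 RPM in the knockout libraries. Wfdc15a itself was read at 121 and 85.2 RPM in the heterozygous and at 82.6 and 59.5 RPM in the knockout libraries (log2 difference -0.53, SE 0.29, limma adjusted p = 0.647). The knockout label was not checked further by these values, since the altered part of the gene is not known.

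The sequences upstream of 4 of the genes are shown because Insl3, Hsd3b6 and Hsd17b3 were among the genes whose knockout libraries both lay above both heterozygous libraries, while Hsd3b1, a close relative of Hsd3b6, was not. They were taken from RefSeq on build GRCm38.p6, which held 7 of the 10 genes. Star, Cyp17a1 and Nr5a1 were not matched. Each run covers 200 bases, from 250 to 51 bases before the annotated start, and reads 5′ to 3′ on the strand of the gene. Capitals mark AAGGTC or its reverse complement, the core of the element that steroidogenic factor 1 is known to bind. The positions are chr8:71689002-71689201 on the plus strand for Insl3, and chr3:98814494-98814693, chr3:98859845-98860044 and chr13:64089252-64089451, all on the minus strand, for Hsd3b6, Hsd3b1 and Hsd17b3.
Insl3: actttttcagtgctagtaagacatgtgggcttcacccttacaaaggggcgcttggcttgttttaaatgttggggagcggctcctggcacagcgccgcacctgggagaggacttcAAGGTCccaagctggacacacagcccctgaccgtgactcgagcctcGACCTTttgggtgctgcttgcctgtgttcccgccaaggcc
Hsd3b6: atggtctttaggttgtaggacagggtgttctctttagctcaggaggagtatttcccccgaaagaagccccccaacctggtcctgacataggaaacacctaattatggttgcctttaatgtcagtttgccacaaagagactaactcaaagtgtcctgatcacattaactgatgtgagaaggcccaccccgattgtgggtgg
Hsd3b1: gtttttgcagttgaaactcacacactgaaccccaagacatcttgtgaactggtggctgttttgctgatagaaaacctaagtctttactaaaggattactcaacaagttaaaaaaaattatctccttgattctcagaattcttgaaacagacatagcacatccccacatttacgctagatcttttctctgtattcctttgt
Hsd17b3: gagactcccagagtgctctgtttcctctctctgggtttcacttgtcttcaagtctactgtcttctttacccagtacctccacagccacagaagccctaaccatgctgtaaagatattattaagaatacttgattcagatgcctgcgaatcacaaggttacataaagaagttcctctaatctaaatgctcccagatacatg
The Insl3 window held the 6 letters AAGGTC at 2 places, once on each strand, and none of the other windows matched for these genes (8 windows of 7 genes) held them on either strand. Of 32851 promoter windows of the same length, 8.73% held AAGGTC. The longer form CAAGGNCA, which can overlap AAGGTC, was in 4.54% of all windows and in 0 of the 8. A match is a description of the letters only.

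Insl3, the hormone gene, was at 0.693 and 0.650 RPM in heterozygous libraries 1 and 2 (4 and 22 reads) and at 20.0 and 7.54 RPM in knockout libraries 1 and 2 (423 and 85 reads). Both knockout libraries lay far above both heterozygous libraries, and knockout 1 was 2.65 times knockout 2. The exact binomial (Clopper-Pearson) 95% intervals, which cover counting error only, ran from 0.189 to 1.77 and from 0.407 to 0.984 RPM in the heterozygous libraries. In the knockout libraries they ran from 18.1 to 22.0 and from 6.02 to 9.33 RPM, so the groups were apart by more than the counting error of independent reads. Such intervals, here and below, are too narrow if read pairs were counted as 2 or PCR copies as separate reads. The group means were 0.671 ± 0.0303 RPM and 13.8 ± 8.80 RPM (SD, n = 2 each), a ratio of 20.5. Over pooled reads the ratio was 23.9 (exact 95% interval 16.1 to 36.9, counting error only). The log2 difference was 4.19 (SE 0.68, 95% confidence interval 2.70 to 5.69, limma adjusted p = 0.222), which did not pass the adjusted threshold of 0.05. An exact two-sided permutation test of 2 against 2 libraries gave p = 0.333, the smallest value this design allows. In bulk samples of sorted cells, more cells of a type and more RNA per cell cannot be told apart.

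The call on Insl3 differed between settings. Its limma adjusted p was 8.26e-05 without heterozygous library 1 and 6.95e-04 without heterozygous library 2, fits that take their spread from the knockout pair, and 0.999 without knockout library 1 and 0.165 without knockout library 2. With no filter on low values it was 1.92e-05, while it was 0.269 without the variance trend, 0.146 with array weights and 0.130 with voom. Why the calls differ was not tested. The size of the difference moved less, from 3.49 to 4.90 on the log2 scale over the 4 fits that leave out a library.

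**Figure D1:**
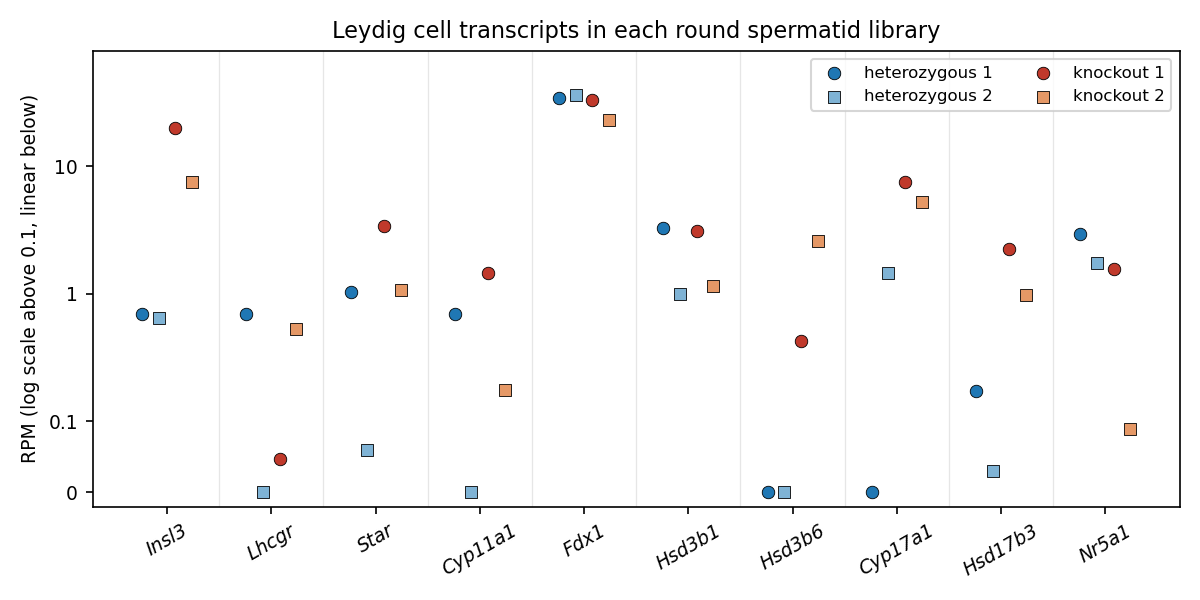
Level of each Leydig cell gene in RPM (vertical axis, logarithmic above 0.1 and linear below) in the 4 libraries, 1 point per library, with circles for replicate 1 and squares for replicate 2 of each genotype. Insl3, Cyp17a1, Star, Hsd3b6 and Hsd17b3 have both knockout points above both heterozygous points, while Fdx1 lies between 23.1 and 36.1 RPM in every library.

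Insl3 shares sequence with a neighbour. In the table it spans 71689214 to 71690575 on the plus strand of chromosome 8 (mm10), inside the interval of Jak3, 71676296 to 71690575 on the same strand. Jak3 encodes a kinase of cytokine receptors in blood cells. GENCODE M21, an annotation on the same build, gives Insl3 exon 1 of 219 bases and exon 2 of 404 bases, and exon 2 (71690172 to 71690575) is also the last of the 25 exons of a Jak3 transcript. Reads in that exon fit either gene, and how such reads were counted is not stated by the labels.

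Jak3 had 10.9 and 7.15 RPM in heterozygous libraries and 26.6 and 16.2 RPM in the knockout libraries, with no overlap between the groups. Its log2 difference was 1.23 (SE 0.41, limma adjusted p = 0.544, unadjusted p = 0.0126). Subtracting the reads of Insl3 from those of Jak3, library by library, left 10.2 and 6.50 RPM in the heterozygous and 6.62 and 8.61 RPM in the knockout libraries. The groups then overlapped, and the log2 difference was -0.11 (SE 0.45, 95% confidence interval -1.10 to 0.88, limma adjusted p = 0.971). This subtraction was added after the values had been seen, and it assumes that every Insl3 read was also counted for Jak3. Exon 1 of Insl3 (219 bases) is not listed as an exon of Jak3. If reads were counted by exon, the subtraction therefore removed too many, most of all in the knockout libraries, and the overlap of the groups rests on this assumption. The reads of Insl3 equalled 6.35% and 9.09% of those of Jak3 in the heterozygous libraries, and 75.1% and 46.7% in the knockout libraries.

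**Figure D2:**
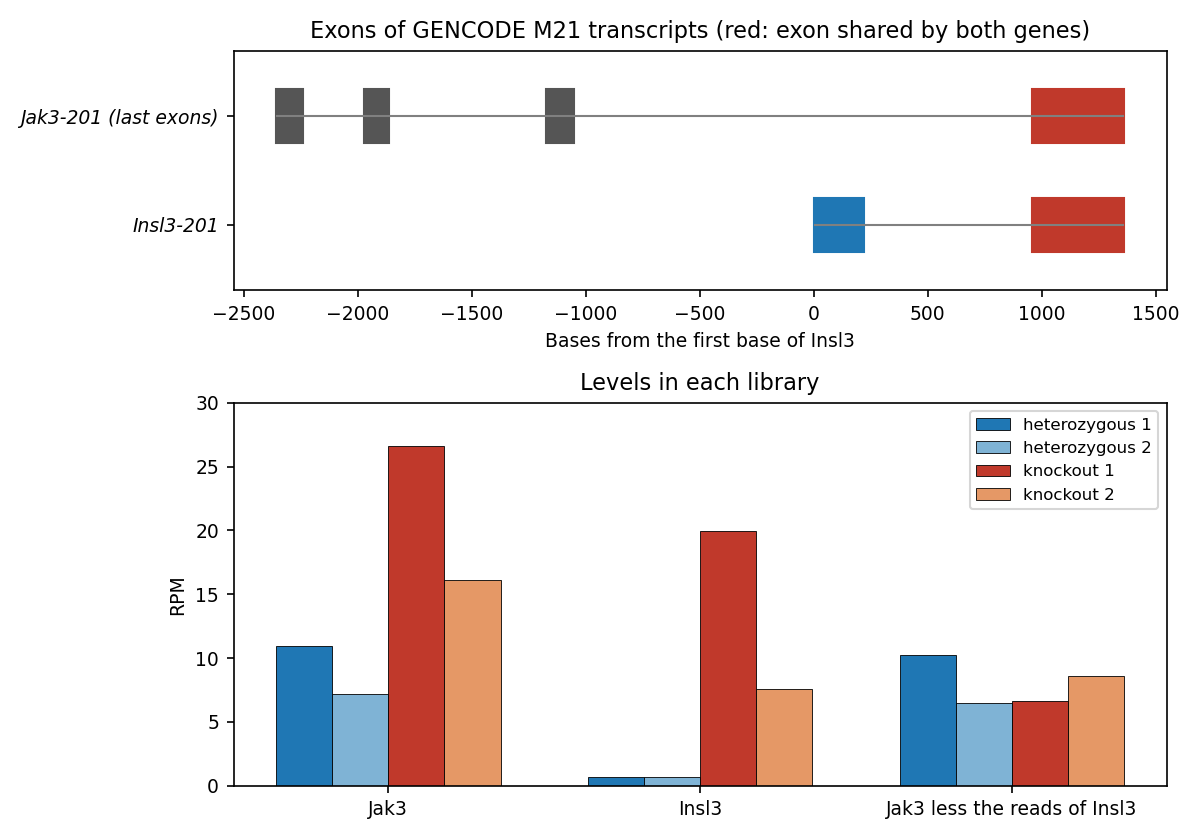
The upper panel maps the exons of Insl3 and the last 4 exons of a Jak3 transcript by distance in bases from the first base of Insl3, with the shared exon of 404 bases in red. The lower panel gives the RPM of Jak3, of Insl3 and of Jak3 less the reads of Insl3 in each of the 4 libraries, and the last set lies between 6.50 and 10.2 RPM in both groups.

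Lhcgr, the receptor for luteinizing hormone, was barely read. It had 4 and 0 reads in the heterozygous libraries and 1 and 6 reads in the knockout libraries, or 0.693, 0, 0.0473 and 0.532 RPM. The groups overlapped, and the 0 reads of heterozygous library 2 allow a level of up to 0.0886 RPM (3 reads). Lhcgr was not tested, because it did not reach 1 RPM in at least 2 libraries.

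Star, the cholesterol carrier, had 1.04 and 0.0591 RPM in heterozygous libraries 1 and 2 (6 and 2 reads) and 3.40 and 1.06 RPM in knockout libraries 1 and 2 (72 and 12 reads). The knockout libraries lay above the heterozygous ones by the narrowest margin of the 5 genes that did so. The interval of heterozygous library 1, 0.381 to 2.26 RPM, holds that of knockout library 2, 0.550 to 1.86 RPM, so these libraries were not distinguishable at this depth. The ratio of group means was 4.07, and over pooled reads it was 12.8 (exact 95% interval 6.22 to 30.7). That interval covers counting error only, and most of the pooled heterozygous depth came from heterozygous library 2. The log2 difference was 2.94 (SE 1.57, limma adjusted p = 0.644). Without heterozygous library 1 it was 5.01 (adjusted p = 0.0426), and without heterozygous library 2 it was 0.87 (adjusted p = 0.689).

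Cyp11a1, which encodes the side-chain cleavage enzyme, had 4 and 0 reads in the heterozygous and 31 and 2 reads in the knockout libraries. Its levels were 0.693, 0, 1.47 and 0.177 RPM, so knockout 1 stood above the other libraries and knockout 2 lay between the heterozygous libraries. Fdx1, which encodes its electron donor, showed another pattern. It was at 34.1 and 36.1 RPM in the heterozygous and at 33.1 and 23.1 RPM in the knockout libraries, so the knockout libraries lay below, and most of the gap came from knockout 2. The counting interval of knockout 1 was 30.7 to 35.6 RPM. It overlapped those of both heterozygous libraries (29.5 to 39.2 and 34.1 to 38.2 RPM). The log2 difference was -0.35 (SE 0.32, 95% confidence interval -1.05 to 0.36, limma adjusted p = 0.816). Fdx1 serves mitochondrial enzymes in many cell types and alone supplied 78.2% and 88.0% of the summed RPM of the 10 genes in the heterozygous libraries, against 45.5% and 54.4% in the knockout libraries.

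The Hsd3b genes encode the enzyme that turns pregnenolone into progesterone, and Hsd3b6 is the form known from adult Leydig cells. No read of Hsd3b6 was found in either heterozygous library, and the knockout libraries held 9 and 29 reads, or 0.425 and 2.57 RPM. Against 3 reads in each heterozygous library (0.520 and 0.0886 RPM, mean 0.304 RPM), the knockout mean of 1.50 RPM was at least 4.93-fold higher. Most of that mean came from knockout 2. The interval of knockout 1, 0.194 to 0.807 RPM, overlapped that of heterozygous library 1, 0 to 0.639 RPM, so these libraries were not distinguishable. Over the pooled reads of each group, 0 against 38, the exact 95% interval of the ratio of rates began at 12.0. That interval covers counting error only. In each library more genes had 2 reads than 1 (681 and 465 in heterozygous library 2). If read pairs were counted as 2, both bounds are too high.

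In Hsd3b6, and in the sparse counts of Lhcgr, the knockout libraries took the opposite order to Insl3. The interval of Hsd3b6 was 1.72 to 3.70 RPM in knockout 2 and 0.194 to 0.807 RPM in knockout 1. Hsd3b1 was at 3.29 and 1.004 RPM in the heterozygous and at 3.12 and 1.15 RPM in the knockout libraries, so the groups overlapped and the first library of each genotype was the higher. Its log2 difference was 0.06 (SE 0.88, 95% confidence interval -1.89 to 2.01, limma adjusted p = 0.993). Both genes belong to a cluster of similar copies on chromosome 3, among which reads can be misassigned. Of the other copies only Hsd3b2 and Hsd3b3 were looked up, and they were hardly read. Hsd3b2 had 6 reads in knockout 1 and 0 elsewhere, and Hsd3b3 had 2 and 1 reads in the knockout libraries and 0 in the heterozygous ones.

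Cyp17a1, which encodes the enzyme that makes androgens out of progestogens, had 0 and 1.45 RPM in heterozygous libraries 1 and 2 (0 and 49 reads) and 7.47 and 5.24 RPM in the knockout libraries (158 and 59 reads). The groups did not overlap, and the 0 reads of heterozygous library 1, the shallowest library, allow up to 0.520 RPM. The ratio of the group means was 8.78 (0.724 ± 1.02 against 6.35 ± 1.58 RPM, SD, n = 2 each). Over pooled reads it was 5.41 (exact 95% interval 3.95 to 7.54, counting error only). The log2 difference was 3.72 (SE 1.04, 95% confidence interval 1.42 to 6.01, limma adjusted p = 0.453). Without heterozygous library 2, where the heterozygous level is the value given to 0 reads, the log2 difference was 5.33 (limma adjusted p = 0.00101), and without heterozygous library 1 it was 2.11 (adjusted p = 0.0666). Leaving out knockout library 1 gave a limma adjusted p of 0.999 and knockout library 2 one of 0.9996, and it was 0.011 with no filter on low values.

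Hsd17b3, whose enzyme makes testosterone from androstenedione, had 1 read in each heterozygous library (0.173 and 0.0295 RPM) and 47 and 11 reads in the knockout libraries (2.22 and 0.976 RPM). The ratio of the group means was 15.8. Over the pooled reads of each group the ratio was 35.4, with an exact 95% interval of 9.38 to 299.6 that covers counting error only. The interval of heterozygous library 1, 0.00438 to 0.965 RPM, overlapped that of knockout library 2, 0.487 to 1.75 RPM, so these libraries were not distinguishable at this depth. Hsd17b3 lay just outside the filter, with a second-highest library at 0.976 RPM, and Star just inside, at 1.06 RPM.

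Nr5a1, the regulator, went the other way. It was at 2.94 and 1.74 RPM in the heterozygous and at 1.56 and 0.0887 RPM in the knockout libraries, and both knockout libraries lay below both heterozygous ones. The low value of knockout 2 was a single read. The counting interval of knockout 1, 1.07 to 2.19 RPM, overlapped that of heterozygous library 2, 1.33 to 2.25 RPM. These libraries were therefore not distinguishable at this depth. The log2 difference was -2.61 (SE 1.40, limma adjusted p = 0.644) with a 95% confidence interval of -5.69 to 0.47. It was -0.54 without knockout library 2. Sertoli cells are also known to transcribe Nr5a1. Its interval in the table overlaps that of 4933433P16Rik on the opposite strand, which had 0, 5, 8 and 2 reads.

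Of the 10 genes, 6 reached the filter of 1 RPM in at least 2 libraries, a filter that Insl3, Cyp17a1 and Star passed only through the knockout libraries, since at most 1 heterozygous library of each reached 1 RPM. None of these 6 passed an adjusted p of 0.05, and 0% of the 15888 genes tested with limma did (0 genes, also with voom on the recovered reads). At an unadjusted p under 0.05, 1283 genes were left by limma and 1961 by voom, and limma placed Insl3 and Cyp17a1 among them. Of all tested genes, 6.21% were higher and 1.87% lower at that unadjusted threshold. Among the 6, both knockout libraries lay above both heterozygous libraries for 3 (Insl3, Cyp17a1 and Star) and below for 2 (Nr5a1 and Fdx1), against 23.5% and 15% of all tested genes. Of the 4 genes below the filter, Hsd3b6 and Hsd17b3 lay above, and Cyp11a1 and Lhcgr overlapped. The shares over tested genes do not cover genes below the filter. For Hsd3b6 and Hsd17b3 the counting intervals of heterozygous library 1 and of 1 knockout library overlapped. For Nr5a1 and Fdx1 those of heterozygous library 2 and of knockout library 1 overlapped. Leaving out a library cannot bring groups that lie apart into overlap, so it adds no support for Insl3, Cyp17a1, Star, Hsd3b6 and Hsd17b3. The median log2 difference of the 6 was 1.50, beside 0.07 over all tested genes, and it was 0.28 without heterozygous library 2 and 0.75 without knockout library 1.

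The table places these genes on mm10 as follows. Star spans chr8:25808474-25814723 and Cyp11a1 chr9:58015013-58027020, both on the plus strand. On the minus strand lie Hsd3b6 (chr3:98805504-98814443) and Hsd3b1 (chr3:98852194-98859794), which neighbour each other, Cyp17a1 (chr19:46667165-46672974) and Hsd17b3 (chr13:64058274-64089201). Lhcgr (chr17:88741549-88791976), Nr5a1 (chr2:38692656-38714542) and Fdx1 (chr9:51943307-51963533) are on the minus strand too.

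**Figure D3:**
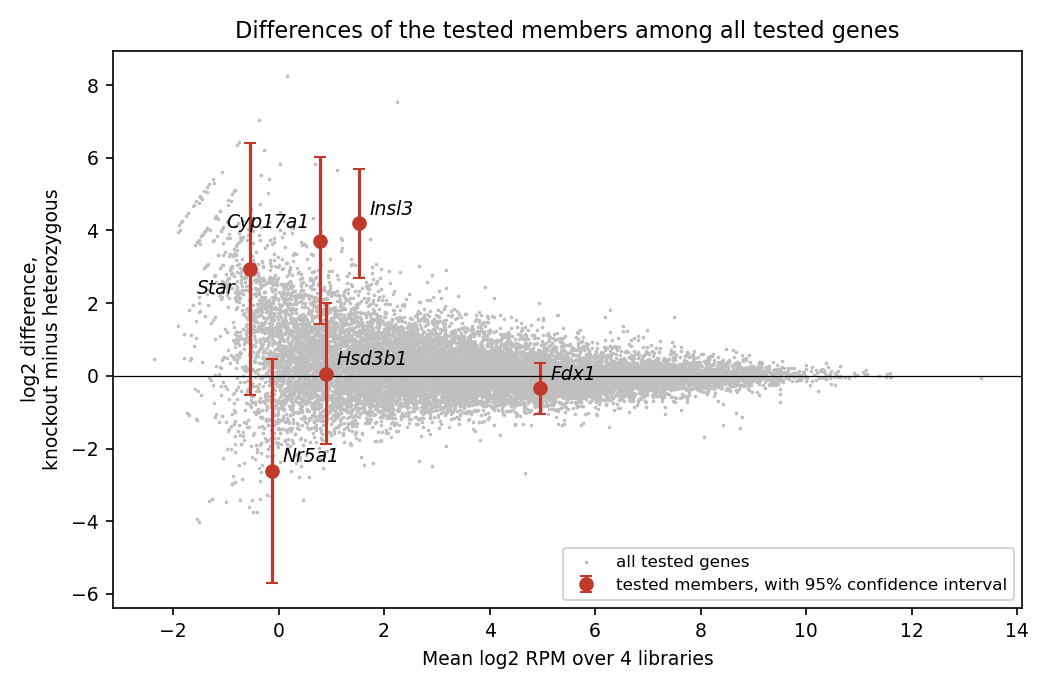
The log2 difference between knockout and heterozygous libraries (vertical axis) against the mean log2 RPM over the 4 libraries for the 15888 tested genes in grey and the 6 tested Leydig cell genes in red, with limma 95% confidence intervals. Insl3 (4.19) and Cyp17a1 (3.72) have intervals above 0, while those of Star, Hsd3b1, Nr5a1 and Fdx1 include 0.

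RPM is not adjusted for gene length, so levels of different genes were compared per kilobase of annotated exon (GENCODE M21). On this scale Fdx1 led in the heterozygous libraries at 11.3 ± 0.458 RPM per kilobase (SD, n = 2 here and below). Hsd3b1 (1.16 ± 0.871), Insl3 (1.08 ± 0.0487) and Nr5a1 (0.553 ± 0.200) followed, neighbours that differed by less than the larger of their SDs, except that the gap of Insl3 to Nr5a1 was wider than either SD. Cyp17a1 was at 0.261 ± 0.370 RPM per kilobase, Star, Hsd17b3, Cyp11a1 and Lhcgr lay between 0.134 and 0.0453, and Hsd3b6 had no read.

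In the knockout libraries Insl3 came first on the same scale, at 22.1 ± 14.1 RPM per kilobase, ahead of Fdx1 at 9.05 ± 2.28, a gap smaller than the SD of Insl3. Cyp17a1 came next at 2.29 ± 0.570, above Hsd3b1 (1.15 ± 0.749) and Hsd17b3 (1.15 ± 0.633) by more than their SDs. Hsd3b6 (0.832 ± 0.843), Star (0.543 ± 0.402), Nr5a1 (0.194 ± 0.245) and Cyp11a1 (0.171 ± 0.190) each differed from the next by less than the SD, and Lhcgr was last at 0.0379 ± 0.0449. The length of Insl3, 623 bases, is the shortest of the 10 and includes the exon shared with Jak3.

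The make-up of the set differed between libraries as well as its size. The summed level of the 9 genes other than Fdx1 was 9.53 and 4.93 RPM in the heterozygous and 39.7 and 19.3 RPM in the knockout libraries, a ratio of means of 4.08. Insl3 made up 7.27% and 13.2% of that sum in the heterozygous libraries and 50.4% and 39.0% in the knockout libraries. Hsd3b1 and Nr5a1 led in heterozygous library 1, at 34.5% and 30.9%, and Nr5a1 (35.3%) and Cyp17a1 (29.3%) in heterozygous library 2. With Fdx1 included the sums were 43.6, 41.1, 72.8 and 42.4 RPM and the groups overlapped (ratio of means 1.36).

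Further genes of Leydig cells were read against the same background of 23.5% higher and 15% lower. In this list and those below, some genes passed the filter only through the knockout libraries, such as Prlr, Fos and Trf. Of 6 other Leydig markers, all tested, 0 passed, and 4 lay above both heterozygous libraries and 0 below. Aldh1a1, a retinaldehyde dehydrogenase gene, was at 11.6 and 1.15 against 14.4 and 23.9 RPM, and Prlr, the prolactin receptor gene, at 3.12 and 0.295 against 3.17 and 7.37 RPM. Vcam1, a cell adhesion gene (1.73 and 1.45 against 3.54 and 5.15 RPM), and Inha, the inhibin alpha gene (1.73 and 2.54 against 5.06 and 4.17 RPM), were the other 2. In Aldh1a1 and Prlr heterozygous library 1 was close to knockout 1, unlike in Insl3. Hsd11b1, a glucocorticoid enzyme gene, overlapped between the groups (4.16 and 2.36 against 1.94 and 4.08 RPM).

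Upstream of the pathway, 12 of 13 genes of cholesterol supply and mitochondrial import were tested. None passed, 3 lay above, 1 below and 8 overlapped, with a median log2 difference of 0.15. Soat1, which esterifies cholesterol, was at 19.2 and 15.7 against 28.2 and 30.5 RPM, and Npc1, which moves cholesterol out of lysosomes, at 1.21 and 1.30 against 5.53 and 2.22 RPM. Npc2, the partner of Npc1, was the other gene above. Scarb1, the receptor for high-density lipoprotein, overlapped (23.2 and 67.9 against 92.5 and 45.4 RPM).

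Electron transfer genes gave 3 above and 0 below among 6 tested, with 0 passing and a median of 0.25. Fdxr, the reductase that feeds ferredoxin, was at 1.73 and 2.33 against 4.25 and 3.46 RPM. Cyb5r3, a cytochrome b5 reductase gene, was at 7.97 and 9.95 against 14.2 and 17.9 RPM, and Cyb5 (the table's symbol for Cyb5a) at 12.8 and 7.12 against 13.3 and 14.6 RPM. Fdx1l, the table's symbol for Fdx2, overlapped, at 4.79 to 5.97 RPM over the 4 libraries. Of the other steroid-converting enzymes, 13 of 21 were tested, 0 passed, 4 lay above and 0 below (median 0.45). Cyp7b1, an oxysterol hydroxylase gene, was at 0.173 and 0.473 against 1.04 and 1.77 RPM, Srd5a3 and Hsd17b11 had group means 1.75 and 1.56 times as high, Hsd17b4 was the other gene above, and Hsd17b7 overlapped.

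Genes of the signal downstream of the luteinizing hormone receptor are shared by most cells, and spermatids use their own cyclic AMP machinery. Of 12 tested, 0 passed, 2 lay above and 1 below, with a median of 0.00. Prkar2a, a regulatory subunit gene of protein kinase A, was the gene below, at 84.2 and 163 against 52.1 and 77.6 RPM. Creb1 was at 4.16 and 4.19 against 5.39 and 9.50 RPM, Adcy9 was the other gene above, and Adcy3 and Pde4a overlapped. Among 14 transcription regulators known from Leydig cells, 10 were tested, 0 passed, and 4 lay above and 0 below (median 0.87). They included the immediate early genes Fos (0 and 0 against 26.3 and 14.6 RPM), Jun (1.73 and 0.827 against 5.96 and 3.37 RPM) and Junb (1.04 and 0 against 3.21 and 2.31 RPM), which many cell types induce, and Gata6. Nr4a1, a nuclear receptor gene that luteinizing hormone induces, overlapped (26.2 and 46.0 against 52.0 and 45.6 RPM), as did Gata4 (1.73 and 1.30 against 0.803 and 1.77 RPM).

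The receptors for the hormones of Leydig cells were also read. Rxfp2, the receptor for the hormone of Insl3, was at 14.2 and 7.83 RPM in the heterozygous and at 11.01 and 13.7 RPM in the knockout libraries and overlapped. Of the 5 receptor genes, all tested, 0 passed, 0 lay above and 1 lay below. Rxfp1 and Esr2 overlapped.

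Markers of other cells of the testis also differed between these libraries, and their part in the values of the Leydig cell genes was not tested. Of 15 macrophage markers, 14 were tested and 0 passed, with a median log2 difference of 4.90. Both knockout libraries lay above both heterozygous libraries for 13 and below for 0, against 23.5% and 15% of all tested genes. The tested marker that overlapped was Emr1, the table's symbol for Adgre1. It was at 13.0 and 12.5 against 21.6 and 8.43 RPM (log2 difference 0.08). The summed level of the 15 markers was 37.2 and 38.6 RPM in the heterozygous and 381 and 128 RPM in the knockout libraries, highest in knockout 1, as for Insl3. H2-Aa was at 0.520 and 0.177 against 35.3 and 6.66 RPM and Lyz2 at 1.04 and 0.443 against 37.6 and 8.08 RPM. Mrc1 (0.520 and 1.595 against 16.5 and 9.14 RPM) and Cybb (0 and 0.118 against 11.2 and 5.24 RPM) had the same order. At most 1 heterozygous library of H2-Aa, Lyz2, Mrc1 and Cybb reached 1 RPM. They therefore passed the filter only through the knockout libraries, as did Cd74, C1qa, C1qb, C1qc, Cd68, Ctss and Tyrobp. Such a filter favours genes that are higher there, so the count above and the median partly follow from it. Of the tested markers only Csf1r, Emr1 and H2-Ab1 reached 1 RPM in both heterozygous libraries. Csf1r was at 3.98 and 4.08 against 24.2 and 13.1 RPM, and H2-Ab1 at 13.0 and 16.7 against 43.3 and 22.7 RPM. Testis macrophages are known to lie beside Leydig cells in the interstitium.

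Of 10 Sertoli markers, 7 were tested, 0 passed, and 5 lay above and 0 below (median 0.95). Their summed level was 24.9 and 40.5 against 63.8 and 60.6 RPM. Clu (10.7 and 25.6 against 37.2 and 29.6 RPM) and Trf (0.520 and 0.768 against 9.31 and 7.54 RPM) were the largest contributors to the gap, and Dhh, Wt1 and Aard lay above as well. The remaining tested markers overlapped, with lower means in the knockout libraries. They were Fshr (2.94 and 1.004 against 1.04 and 0.532 RPM) and Cldn11 (1.73 and 1.36 against 1.04 and 1.42 RPM). Sox9, not tested, overlapped between the groups too (0.693 and 0.620 against 0.284 and 0.621 RPM). Amh, known from immature Sertoli cells, had 0 reads in every library.

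Peritubular and stromal markers did not separate the groups. Their summed level was 111 and 16.2 RPM in the heterozygous and 108 and 93.0 RPM in the knockout libraries, so heterozygous library 2 stood apart. Of 7 tested (of 9), 0 passed, 2 lay above and 0 below, with a median of 1.37. Dcn, a proteoglycan gene of stroma, was at 83.8 and 5.79 against 77.6 and 64.2 RPM, Col3a1 and Pdgfra were also lowest in heterozygous library 2, and Myh11, which lay above as did Tagln, was at 0.346 and 0.443 against 2.17 and 2.22 RPM. The sum of heterozygous library 1 was mostly Dcn (83.8 of 111 RPM), and its Myh11 level was like that of heterozygous library 2. How these levels relate to those of Insl3 was not tested.

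Spermatogonial markers gave 3 above and 0 below among 7 tested (of 8), with 0 passing, a median of 1.05 and sums of 58.9 and 49.2 against 86.9 and 73.4 RPM. Kit, Stra8 and Dmrt1 were those above, at 1.95, 2.15 and 2.098 times the heterozygous mean, and Uchl1 overlapped. Endothelial markers gave 1 above (Pecam1) and 1 below (Vwf) among 4 tested (of 5), with a median of -0.63, and their sums, 27.2 and 31.9 against 19.2 and 25.6 RPM, were lower in the knockout libraries, with Kdr and Tek overlapping. Spermatocyte markers gave 1 above (Piwil1) and 0 below among 8 (median 0.03), with Sycp3, Spo11 and Dmc1 overlapping. Of the 12 round spermatid markers, 2 lay above (Acrv1 and Spaca1) and 4 below (median -0.13), and those below were Tnp1, Tnp2, Prm1 and Prm2, the genes of proteins that replace histones. None of these 4 lists had a member that passed.

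**Figure D4:**
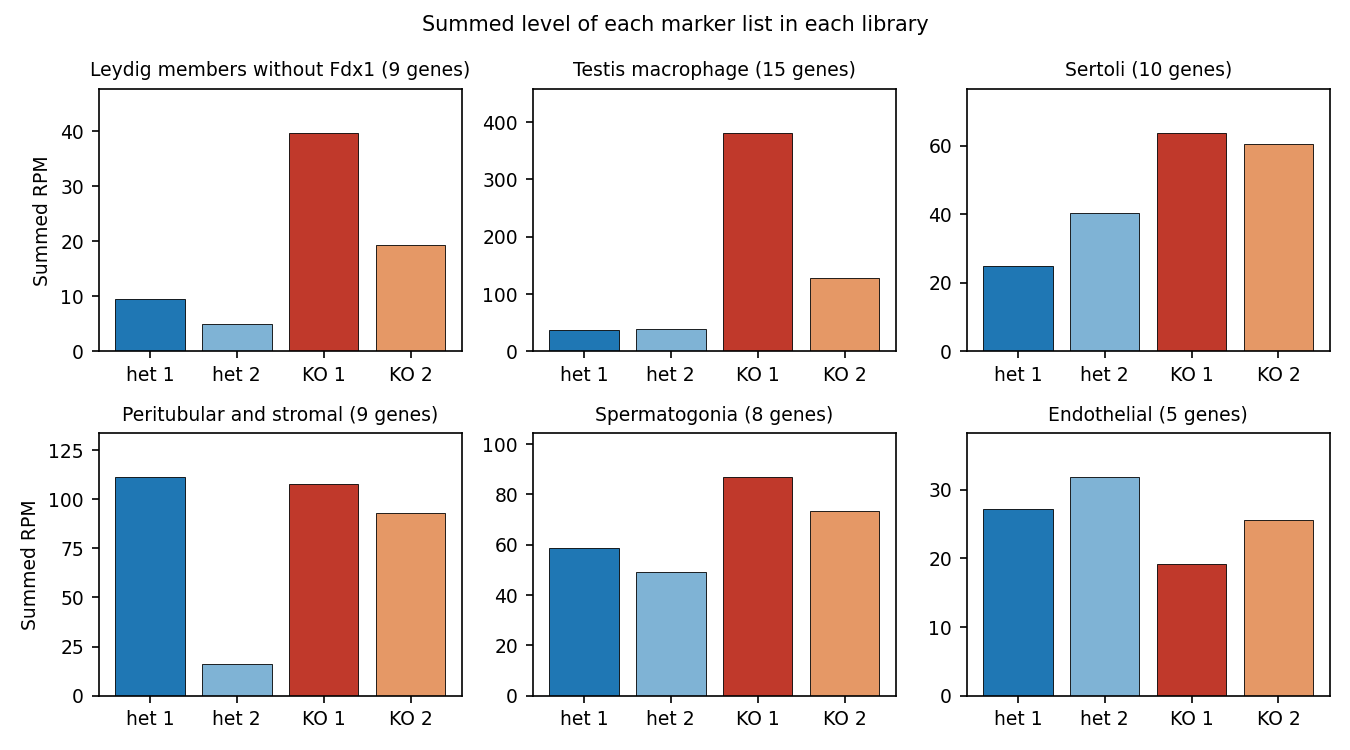
Summed RPM of the 9 Leydig cell genes other than Fdx1 and of 5 marker lists in each library (het, heterozygous; KO, knockout), 1 bar per library, with axes that start at 0 and differ between panels. The Leydig sum (39.7 and 19.3 RPM) and the macrophage sum (381 and 128 RPM) are highest in knockout 1 and next in knockout 2, while the peritubular and stromal sum is low in heterozygous library 2 alone (16.2 RPM).

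The genes most like Insl3 in pattern were sought among the other 15882 tested genes by the root mean square distance of centred log2(RPM + 1) over the 4 libraries; symbols of predicted genes (Gm with digits) and Rik clones were not considered. The nearest was Cybb, the phagocyte oxidase gene, at a distance of 0.137, followed by Tyrobp, a signalling adaptor gene of myeloid cells (0.170), and Ctss, the cathepsin S gene (0.186). Klf6, a transcription factor gene (0.245), and Ctsc, the cathepsin C gene (0.302), came next. Each had a knockout 1 level 2.09 to 3.42 times that of knockout 2, beside 2.65 times for Insl3. A like ratio follows from the choice by distance over these same libraries. All of these genes, and Insl3, passed the filter only through the knockout libraries. With 4 libraries in 2 groups, such likeness is a description and many genes can share it.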

How the data were processed

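Gene expression was measured in 4 libraries of sorted round spermatids, 2 heterozygous and 2 knockout by their titles. The authors deposited log2 RPM values for 25965 genes (reads per 1000000 reads of the library total, not adjusted for length), and the submitters' processing notes list HISAT2 2.1.0, Trim Galore 0.6.6 and FastQC 0.11.8, with build mm10. No source used here names the counting tool or the annotation. A gene without reads sits at the value of 0.9 of a read, and on that scale 99.7% to 100.0% of the other values per library were whole within 0.01 of a read, so reads were recovered and RPM recomputed with 0 for no read. Smart-seq2 keeps neither strand nor molecular identifiers, so PCR copies count as reads.

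The 15888 genes that reached 1 RPM in 2 libraries or more were tested on the deposited log2 values by limma (3.58.1, R 4.3.3). The test was two-sided with a trended prior variance, and Benjamini-Hochberg adjustment ran over these genes (threshold 0.05). The code was tested on simulated data. The members and the 14 other gene lists were chosen with earlier results of these data known. The text names all members, genes whose interval overlaps one, up to 4 genes per list by smallest p, and the 5 genes most like Insl3. Acrv1, Aard, Adcy9, Amh, Gata4, Gata6, Hsd11b1, Hsd17b4, Hsd3b2, Hsd3b3, Npc2, Sox9, Spaca1 and Tagln were named after their values were seen. So were C1qa, C1qb, C1qc, Cd68, Cd74, Cldn11, Csf1r, Emr1, Fshr and H2-Ab1. Of 151 symbols, 146 matched as written, 4 by an older symbol, and 1 did not match. Exon lengths came from GENCODE M21. Analyses used Python 3.11.15 with pandas 2.3.3, numpy 2.4.6, SciPy 1.17.1 and matplotlib 3.10.9. Alternatives were other scalings, pseudocount, lowest value, filters, variance models, voom, a replicate block and leaving out each library. The values of 2 genes of the lists are not reported here.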

Additional observations from a re-analysis of the deposited data

How the results depend on the processing

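Passing genes numbered 0 with limma on the filtered values and stayed at 0 with median-ratio scaling, quantile normalization, a common lowest value, array weights, voom, an untrended variance and the filter of 5 RPM. There was 1 (Fos) with log2(RPM + 1), 180 with no filter and 66 with the replicate number as a block. Leaving out 1 library gave 0 to 558. Over the 14 lists, 1, 19 and 14 genes passed in those 3 settings and 0 to 26 without a library. The block also called Insl3 (adjusted p = 9.06e-05) and Cyp17a1 (adjusted p = 0.0356), but the pairs share only a number: deviations of same-numbered libraries correlated at r = -0.076 across tested genes. The 5 genes called without knockout library 2 were Cwc22, Btbd1, Lyz2, H2-Eb1 and Cd74, and 442 were called without heterozygous library 1.

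The median over the 6 tested members was 0.53 with log2(RPM + 1), 3.72 with the 5 RPM filter, which left 3 of them, and 0.28 to 2.28 without a library. Insl3 kept its direction in all 14 alternatives, with a log2 difference of 3.002 to 4.90 and adjusted p of 1.92e-05 to 0.999. Cyp17a1, Star, Nr5a1 and Fdx1 also kept theirs wherever they were tested. Hsd3b1 turned to -0.35 with quantile normalization and ranged from -0.79 to 0.92 without a library; the cause was not tested. Jak3 turned to -0.11 once all reads of Insl3 were subtracted, which removes too many if reads were counted by exon. The ratio of summed RPM was 4.08 without Fdx1, the largest member, 1.05 without Insl3, and 1.002 to 1.72 without a library. Depth limits Lhcgr, Cyp11a1, Hsd3b6 and Hsd17b3, with at most 47 reads in any library.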
